A study of Mus musculus with 8 samples.

Results

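Chromosome 14 of the mouse was read as an ordered row of array probes, to ask whether liver RNA differences between AIM-knockout and wild-type mice lie side by side along it. Members were the non-control probes with 1 coordinate on chromosome 14 (mouse build mm8) whose signal was marked well above background on at least 2 of 8 arrays. These were 741 of the 1556 chromosome 14 probe positions on the array, for 510 different genes or transcripts, and of 21385 kept probes in all. The chromosome was chosen by its genotype differences in these same arrays, so knockout minus wild-type values are given as a description, and the change with diet is the comparison the choice did not use.

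AIM, encoded by Cd5l, is a protein secreted by macrophages that circulates in blood and acts on lipid droplets, inflammation and dying cells. Genes on one stretch of a chromosome are inherited together, so differences between mouse lines are often ordered by position to see whether they fall next to each other. Chromosome 14 holds liver genes of several kinds, among them enzymes of amino acid and fat metabolism, secreted plasma proteins, proteases and ribonucleases of blood cells, and the T cell receptor alpha locus.

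Liver RNA of AIM+/+ and AIM-/- mice, labelled as of C57Bl/6 background, was hybridised to 8 one-colour arrays. There was 1 array for each genotype on normal chow (0 weeks) and after 6, 12 and 20 weeks of high-fat diet. The stem cell line, the sex and age of the mice and the number of mice per array are not given in the sources used here. All wild-type arrays lay on 1 slide and all knockout arrays on the other, so genotype and slide cannot be told apart, and diet cannot be told apart from age.

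Between 18586 and 21119 probes per array were well above background. Cd5l read between 10544 and 30201 on the wild-type arrays and between 90.7 and 171 on the knockout arrays. All 5 measured hepatocyte markers were well above background on all 8 arrays, and 0 of 3 exocrine pancreas markers were on any. The 6 Kupffer cell markers all had a negative mean genotype difference, with summed scaled levels of 43.6 to 66.9 in wild type and 38.8 to 47.9 in knockout. On chow their sum was higher in knockout, 47.9 against 43.6. All 3 neutrophil markers were negative, with sums of 6.08 to 15.4 and 2.11 to 5.92, as were all 5 hepatocyte and 3 B cell markers. The neutrophil marker Ngp was well above background on 0 arrays and the B cell marker Cd79a on 1, so nothing is read from their signs. Of the 4 T and NK cell markers 0 were negative, with sums of 2.19 to 6.53 in wild type and 3.03 to 14.6 in knockout. Of 3 cholangiocyte markers 1 was negative. Both 20-week arrays had high Xist (903 in wild type and 892 in knockout) and no Y-linked signal above background. The other 6 arrays had Y-linked signal. Among them Xist read 165 on the 6-week knockout array, 66.1 on the 12-week wild-type array and 11.0 or less on the rest. The part of these cell markers, of sex and of the slide in the differences below was not tested, and in bulk RNA fewer cells of a type and less RNA per cell cannot be told apart.

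A steady difference was defined as knockout minus wild type of the same sign and at least 0.5 on the log2 scale (1.41-fold) in each of the 4 weeks. By this definition 12 members were lower in the knockout and 1 was higher. That is 1.62% of members lower against 0.449% of all kept probes, and 0.135% higher against 0.196%. The 12 lower members were Cfap20dc, Lrmda, D830044D21Rik, Ldb3, Pck2, Ltb4r2, Setdb2, Gucy1b2, Entpd4, BB098755, Cysltr2 and Slain1. Nothing is read from these shares, since the chromosome was selected on this contrast.

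The promoters of 8 of the 13 steady members are in the RefSeq table used (GRCm38.p6), and 3 are shown because their genes were measured above background on at least 7 of 8 arrays. Each runs from 250 bases before the annotated start to 50 after it, on the gene's own strand, in the C57BL/6J reference and not in the mice studied. Capitals mark matches, on either strand, to the TATA-box core TATAAA, the CCAAT box (letters CCAAT), the GC box GGGCGG and the E-box form CACGTG. No match overlaps another in these windows. These are GRCm38.p6 positions and do not line up with the mm8 probe positions given elsewhere.
Cfap20dc, chr14:8666241-8666540, minus strand: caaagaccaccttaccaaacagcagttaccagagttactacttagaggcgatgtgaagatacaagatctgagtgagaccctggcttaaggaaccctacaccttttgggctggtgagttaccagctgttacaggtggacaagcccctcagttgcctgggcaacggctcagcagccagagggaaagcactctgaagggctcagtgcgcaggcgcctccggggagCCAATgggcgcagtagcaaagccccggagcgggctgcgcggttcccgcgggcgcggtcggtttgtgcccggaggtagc
Lrmda, chr14:22019462-22019761, plus strand: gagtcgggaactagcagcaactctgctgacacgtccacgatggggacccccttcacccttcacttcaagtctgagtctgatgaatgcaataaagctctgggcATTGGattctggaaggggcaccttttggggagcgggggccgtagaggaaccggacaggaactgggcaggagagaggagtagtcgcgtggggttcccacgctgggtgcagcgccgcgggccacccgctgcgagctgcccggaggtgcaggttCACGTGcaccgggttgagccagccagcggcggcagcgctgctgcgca
Pck2, chr14:55540016-55540315, plus strand: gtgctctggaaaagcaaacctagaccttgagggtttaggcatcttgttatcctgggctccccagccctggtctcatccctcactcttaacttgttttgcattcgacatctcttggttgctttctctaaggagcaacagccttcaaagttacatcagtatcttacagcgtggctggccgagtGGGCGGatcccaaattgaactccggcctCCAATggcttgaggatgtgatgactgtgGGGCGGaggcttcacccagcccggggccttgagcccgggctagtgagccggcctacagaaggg

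All 3 windows hold 1 CCAAT match, a motif found in 37.4% of the 32851 promoters in the table. Pck2 alone of these 3 has GGGCGG, with 2 matches (35.7% of all promoters have at least 1). Lrmda alone of the 3 has CACGTG, with 1 match (7.15%). None of the 3 has TATAAA (13.6%). The GC content was 59.7% for Cfap20dc, 64% for Lrmda and 55% for Pck2, against a median of 52.7% over the table. These matches describe the letters of the windows and were not compared with the genotype differences.

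The best-measured steady members were an enzyme of glucose synthesis, Pck2, and an enzyme of nucleotide hydrolysis, Entpd4, the only 2 of the 12 lower members marked well above background on all 8 arrays. Pck2, the mitochondrial phosphoenolpyruvate carboxykinase (probe at 54502699 to 54502758, plus strand), read 395, 305, 729.5 and 747 on the wild-type arrays, in the order 0, 6, 12 and 20 weeks used throughout, and 226, 192, 449 and 289 on the knockout arrays. These are processed signals before scaling. In every week the knockout array was the lower one, but the 12-week knockout array was above the 6-week wild-type array, so the groups overlapped. After scaling, the weekly differences were -0.97, -1.03, -0.71 and -1.43 on the log2 scale, with a mean of -1.03 (SD 0.30 over 4 weeks), or 2.05-fold lower.

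Entpd4, a nucleoside diphosphatase of the Golgi and lysosome (probe at 68319465 to 68319524, plus strand), read 520.0, 556, 590.3 and 756 in wild type and 359.7, 423, 348 and 465 in knockout. Every knockout array was below every wild-type array. The weekly differences of -0.69, -0.76, -0.77 and -0.76 were the closest together of the 12 steady lower members, with a mean of -0.74 (SD 0.04), or 1.68-fold lower. RefSeq also lists Entpd4b, a near-identical copy nearby, so which copy the probe read is uncertain. Of the other steady lower genes, Cfap20dc and Ldb3 had 2 further array probes each and D830044D21Rik and Slain1 had 1 each, none of them a member. Entpd4 was the only steady gene with a further measured probe. That probe lies 16.9 kb before the first and was dim, well above background on 4 wild-type arrays and 1 knockout array, and its weekly differences were -0.82, -0.41, -1.87 and -0.11. Its scaled values did not overlap between genotypes either, though it was not steady by the definition.

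Lrmda and BB098755 differed in all weeks, the first above background in most knockout arrays and the second in none. Lrmda, a leucine-rich repeat protein known from melanocyte differentiation and listed on the array as 1700112E06Rik (21844556 to 21844615, plus strand), read 214, 158, 385 and 408 in wild type and 31.4, 38.4, 50.8 and 60.9 in knockout. The highest knockout array was below the lowest wild-type array, and 3 of the 4 knockout arrays were well above background. The mean difference was -2.77 (SD 0.25 over 4 weeks), or 6.81-fold lower as measured, and -1.70 under the normexp background correction. BB098755, a transcript named only by its expressed sequence tag (68415939 to 68415998, minus strand), read 57.0, 46.8, 72.9 and 44.6 in wild type and 7.39, 6.57, 6.56 and 5.40 in knockout. None of its knockout arrays was well above background, so its size is a bound. With each knockout array set at the dimmest probe above background on it, it was at least 2.03-fold lower in knockout in the processed signals. The weekly measured differences were -3.10, -3.20, -3.48 and -3.10, with values below background in them, and their mean of -3.22 became -0.99 under normexp.

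Both also passed the limma fit of genotype across all probes at a Benjamini-Hochberg adjusted p of 0.05. They made up 2 of 741 members (0.27%), where 0.0187% of all kept probes passed. Because the fit uses the contrast that chose the chromosome, nothing is read from this count. Without any 1 of the 4 weekly pairs of arrays, 0 members passed.

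**Figure D1:**
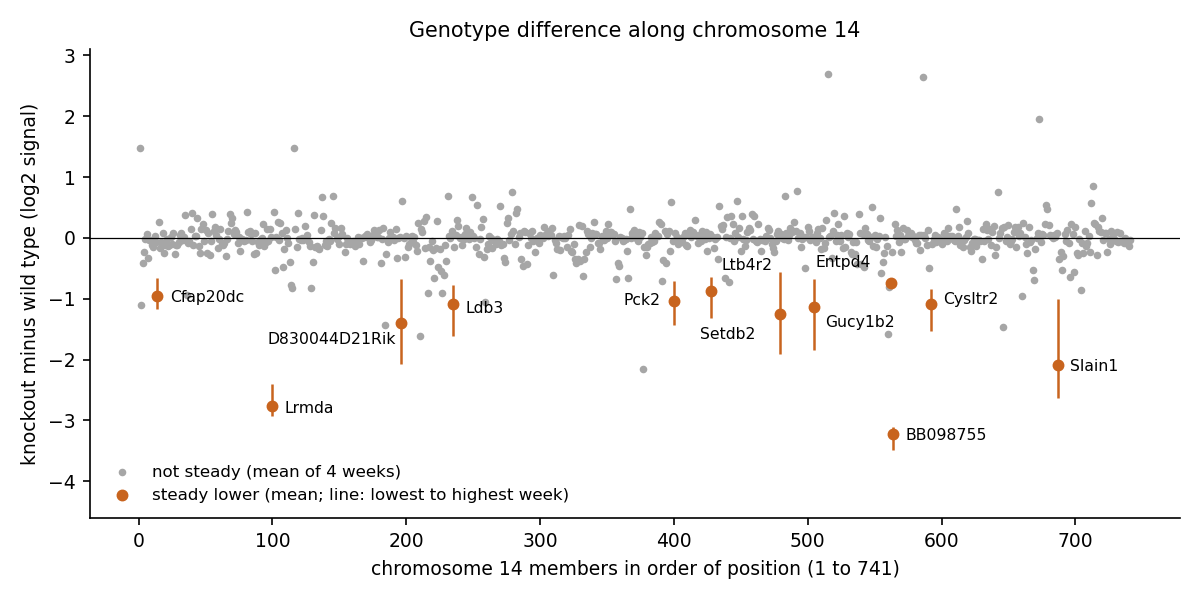
Knockout minus wild type (log2 signal, mean of 4 weeks) of the 741 chromosome 14 members in order of position, except the steady higher one, with the 12 steady lower members in orange and lines from their lowest to highest week. The 12 steady lower members are spread over the row with many members near 0 between them.

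The lipid mediator receptors among the steady members were close to background. Ltb4r2, a leukotriene B4 receptor (54716803 to 54716862, plus strand), read 43.7, 35.1, 34.2 and 48.3 in wild type and 19.5, 25.6, 21.6 and 32.1 in knockout. It was well above background on 4 wild-type arrays and 1 knockout array, with no overlap between genotypes and a mean difference of -0.87 (SD 0.31 over 4 weeks). Cysltr2, a cysteinyl leukotriene receptor (71764285 to 71764344, minus strand), read 19.7, 21.6, 66.3 and 21 in wild type and 7.63, 13.1, 37.4 and 11.6 in knockout. It was well above background on only 1 array of each genotype, and its 12-week arrays were the highest of both. Its mean difference was -1.09 (SD 0.31 over 4 weeks), and -0.30 under normexp.

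Of the other intracellular enzymes, Gucy1b2, a beta subunit of soluble guanylate cyclase (61346800 to 61346859, minus strand), read 66.2, 47.4, 50.5 and 59.6 in wild type and 20.7, 28.9, 32.0 and 32.6 in knockout. The groups did not overlap, but only 1 knockout array was well above background, and the mean difference was -1.13 (SD 0.50 over 4 weeks). Setdb2, a SET-domain protein of the histone lysine methyltransferase family (58377291 to 58377350, minus strand), read 99.7, 120.1, 34.1 and 38.4 in wild type and 37.5, 41.3, 17.6 and 27.2 in knockout. Its 0- and 6-week arrays were higher than the later ones in both genotypes, and the groups overlapped. With a smallest weekly difference of -0.56, Setdb2 lay just inside the definition, and its mean was -1.25 (SD 0.60 over 4 weeks).

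Among structural and cytoskeletal genes, Ldb3, a Z-disc protein of striated muscle (33390595 to 33390654, minus strand), read 44.0, 32.0, 33.7 and 44.7 in wild type and 16.1, 19.0, 18.7 and 27.2 in knockout. It was well above background on 2 wild-type arrays and no knockout array. With each knockout array set at the dimmest probe above background, it was 1.40-fold lower in knockout. This is not a strict bound, since the wild-type mean also holds readings not well above background. Slain1, a microtubule plus-end protein (102589582 to 102589641, plus strand), read 31.5, 9.98, 32.8 and 30.9 in wild type and 7.06, 6.38, 6.40 and 5.16 in knockout. The wild-type 6-week array stood near the knockout arrays, and no fold is given since the knockout arrays were not well above background and the bound was under 1. Cfap20dc (7225429 to 7225488, minus strand) read 48.1, 104, 97.4 and 73.1 in wild type and 33.9, 59.1, 52.6 and 35.6 in knockout, with a mean difference of -0.96 (SD 0.23 over 4 weeks). Its 6- and 12-week arrays were the highest in both genotypes, and the groups overlapped.

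The remaining steady lower member was among the least well measured. D830044D21Rik (30760665 to 30760724, plus strand) read 9.71, 26.4, 46.2 and 16.4 in wild type and 6.76, 10.2, 11.0 and 7.91 in knockout, and 0 knockout arrays and 2 wild-type arrays were well above background.

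**Figure D2:**
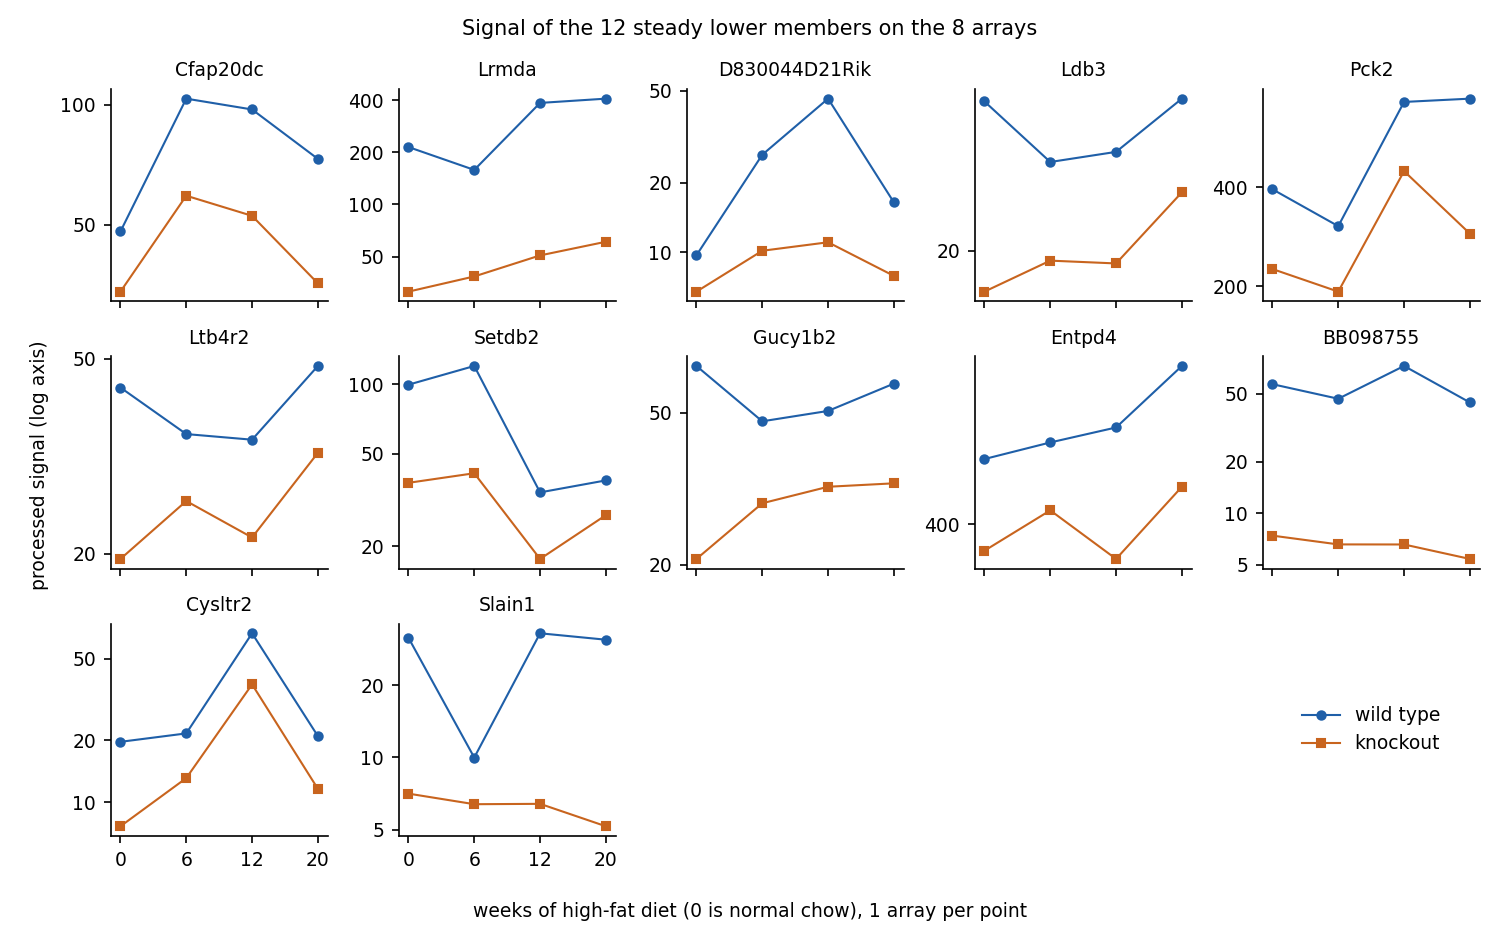
Processed signal (log axis) of the 12 steady lower members by weeks of high-fat diet, with 1 array per point, blue for wild type and orange for knockout. Knockout lies below wild type at every week for all 12, and for BB098755, Ldb3, Slain1 and D830044D21Rik no knockout point is well above background.

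Most of the steady lower members had a low signal, as did such probes elsewhere. Their median scaled log2 level was -3.02, against -0.13 for all 741 members and -2.88 for the 96 steady lower probes of all chromosomes. Pck2 and Entpd4, at 0.39 and 0.78, were the exceptions, and the other 10 ranged from -4.55 to -1.38. Only 2 of 12 (16.7%) were well above background on all 8 arrays, against 587 of 741 members (79.2%). On 4 of 12 (33.3%) no knockout array was above background, close to the 31.2% among the 96 steady lower probes of all chromosomes. They fell equally on both strands, 6 on each. When counted only over probes well above background on all 8 arrays, an alternative added after seeing the data, steady lower members were 2 of 587 (0.341%) against 0.189% of 16969 such probes, and steady higher ones 0 against 0.0825%. Of 173 member genes with several measured probes, only 1, Entpd4, had a steady probe, and its other measured probe was not steady.

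The steady lower members did not form an interval. An interval was defined as steady members of at least 3 different genes whose neighbours lay at most 1 Mb apart. There were 0 on chromosome 14 and 0 on any other chromosome, including chromosome 3, where Cd5l lies. The 12 lower members spanned 95.4 Mb, from 7.23 to 102.59 Mb, with a median gap of 3.66 Mb and a range of 0.0965 to 30.8 Mb. Only 2 of the 11 gaps were within 1 Mb. In 10-Mb bins, the bins from 50 to 60 Mb and from 60 to 70 Mb held 3 steady lower members each, among 170 and 94 members, and no bin held more.

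With only 2 genes required, chromosome 14 had 2 intervals, Pck2 with Ltb4r2 and Entpd4 with BB098755. The same rule gave 12 such pairs over all chromosomes, of which 3 were on chromosome 3. Pck2 and Ltb4r2 lay 214 kb apart with 27 members of 21 genes between them, of which 0 were steady. Those 27, which include the proteasome activators Psme1 and Psme2, the ubiquitin ligase subunit Rnf31 and the interferon response factor Irf9, had a median mean difference of 0.02, from -0.22 to 0.29. Next to Pck2, Dcaf11 at 21.2 kb had a mean difference of 0.07. Beyond Ltb4r2, its paralogue Ltb4r1 5.61 kb further on had a mean of 0.01.

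Entpd4 and BB098755 lay 96.5 kb apart with 1 member between them. This was NAP045521-1, an array sequence without a RefSeq match whose probe starts 489 bases after that of Entpd4, with weekly differences of -0.26, -0.52, -0.10 and -0.06. On the far side, Loxl2, a lysyl oxidase that cross-links collagen, lay 111 kb from Entpd4 and read 177, 161, 649 and 658 in wild type and 180.5, 395, 871 and 555 in knockout. R3hcc1 and Chmp7, the next members, had mean differences of 0.03 and 0.12. On the near side, AK019700 81.7 kb before Entpd4 read 42.9, 23.6, 36.1 and 32.5 in wild type and 7.92, 30.5, 11.3 and 8.28 in knockout. It was lower in 3 of 4 weeks and level at 6 weeks, with 0 knockout arrays well above background. The mitochondrial iron carrier Slc25a37, beyond it, had mean differences of 0.02 and -0.14 at its 2 probes.

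**Figure D3:**
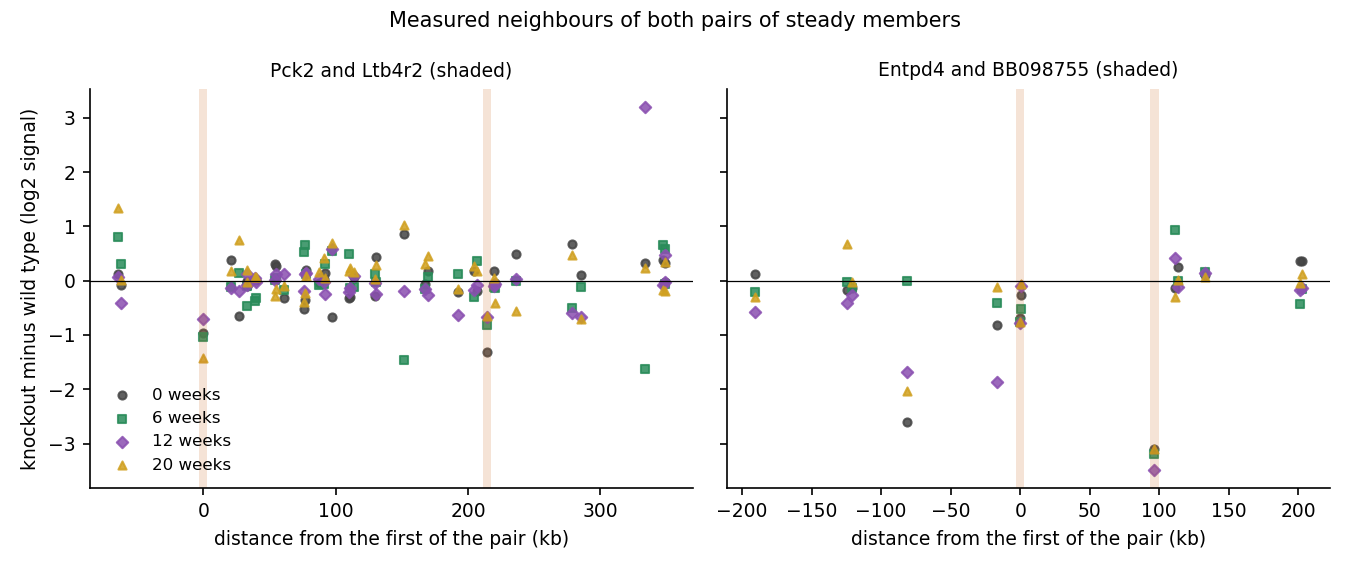
Weekly knockout minus wild type (log2 signal) of the members around Pck2 and Ltb4r2 (left) and around Entpd4 and BB098755 (right), by distance in kb from the first of each pair, with the pair shaded. The 27 members between Pck2 and Ltb4r2 scatter around 0, and beside Entpd4 and BB098755 only AK019700 and the other Entpd4 probe reach below -1 in any week.

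Intervals of 3 or more genes appeared under looser rules, around the same 2 places. These places already held the only 2 gaps within 1 Mb, so looser rules were likely to add to them. No count under these rules is given for other chromosomes, so nothing is read from their return. Without the 6-week arrays there were 2, Slc22a17 with Pck2 and Ltb4r2 over 855 kb and AK019700 with Entpd4 and BB098755 over 178 kb. Without the 12-week arrays there was 1, of Pck2, Ltb4r2 and Ctsg over 551 kb, and without the 20-week arrays 1, of Pck2, Ltb4r2 and Atp12a over 838 kb. With a size of 0.3 in place of 0.5 there was 1, of Slc22a17, Pck2, Ltb4r2 and Atp12a over 1479 kb. With no filter on dim probes there was 1, of Stc1, Entpd4, AK038254 and BB098755 over 431 kb, in which Stc1 and AK038254 were well above background on 0 arrays.

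With a size of 0.3 in place of 0.5, 21 of 741 members were lower and 1 was higher, where 1.08% and 0.468% of all kept probes were. The chromosome was selected on this contrast, so nothing is read from these counts or their direction. Just outside the definition, with a smallest weekly difference between 0.3 and 0.5, lay 9 members, all lower in knockout. They were AK034319, Tmem254a, Cphx1, Il17rd, Olfr1509, Slc22a17, Atp12a, Klf12 and Prr30. The brightest, Tmem254a (24757651 to 24757710), a transmembrane protein gene, read 6556, 7046, 6176 and 7623 in wild type and 3241, 6139, 3036 and 6381 in knockout. Its weekly differences were -1.17, -0.56, -1.03 and -0.32, with no overlap after scaling. The homeobox gene Cphx1, with a probe 31.5 kb further on, read 169, 108, 83.6 and 101 in wild type and 76.4, 79.4, 46.4 and 82.8 in knockout. Both were well above background on all 8 arrays, and RefSeq lists named copies of both beside them, so the copy read is uncertain. Il17rd, a regulator of fibroblast growth factor signalling, shows how probes of 1 gene differed. One probe had weekly differences of -1.28, -1.22, -0.35 and -0.43, while the brightest of its 4 had -0.02, -0.47, -0.01 and -0.04.

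A count that asks only for order gave more members. On 21 members (2.83%) all 4 knockout arrays were below all 4 wild-type arrays, where 1.45% of all kept probes were, and on 4 (0.54%) they were above, where 0.655% were. Of the 21, 7 were steady lower, and 10 were well above background on all 8 arrays. Naa16, an auxiliary subunit of an N-terminal acetyltransferase, chosen after its values were seen, had the largest mean difference of those 10, -1.47 (SD 1.14 over 4 weeks). Its probe read 91.8, 62.9, 214 and 279 in wild type and 50, 76.1, 34.4 and 67.6 in knockout, so the 6-week pair was nearly level after scaling (-0.09). A brighter Naa16 probe 1149 bases further on read 536, 649, 463 and 525 in wild type and 676, 526, 636 and 945 in knockout, with a mean difference of 0.19 in the other direction.

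Set beside the other chromosomes, chromosome 14 had the highest share of steady lower probes, 1.62% against 0% to 1.16% on the 19 others with a median of 0.403%. This is the property it was selected on and was not tested. Chromosome 3, which holds the targeted gene Cd5l, also had 12 steady lower probes, of 1035 (1.16%). It had 11 steady higher ones (1.06%), while chromosome 14 had 1. Chromosome 19 had 8 lower (1.04%) and 1 higher. Across all members the mean differences centred near 0, with a median of -0.01 and an SD of 0.39, against 0.00 and 0.32 for all kept probes, and 52.2% of members were negative against 49.8%.

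**Figure D4:**
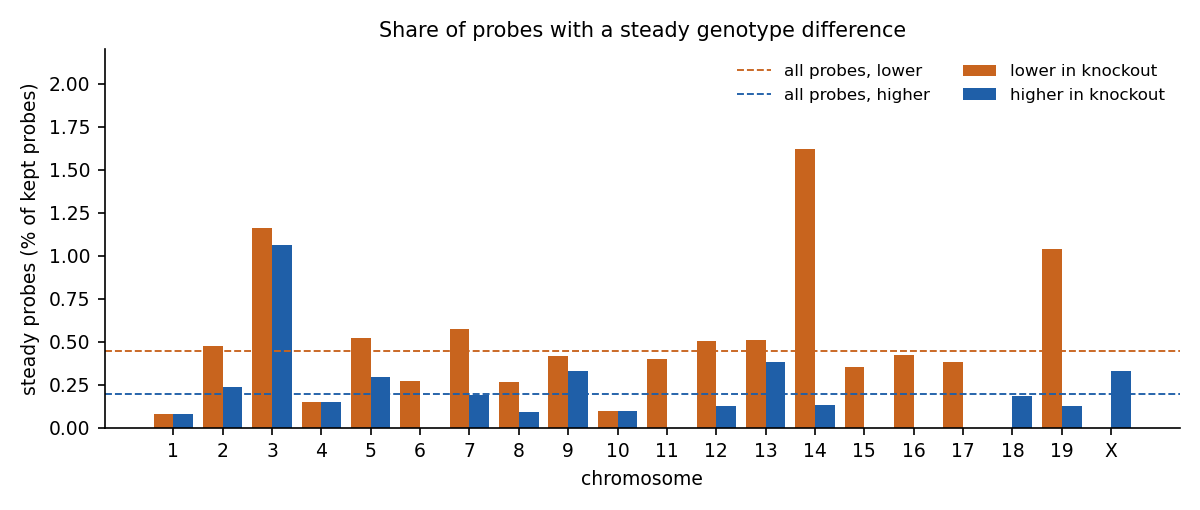
Steady probes as a percentage of the kept probes of each chromosome, lower in knockout in orange and higher in blue, with dashed lines at the share over all probes. Chromosome 14 has the highest lower share, 1.62%, and chromosome 3 has both shares above 1%.

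Counts at a single week set 1 array against 1, so no test is possible. They use the contrast that chose the chromosome, so nothing is read from them. More members were lower than higher at 0, 6 and 20 weeks, and the same was so for all probes. At 0 weeks 40 of 686 members (5.83%) were at least 2-fold lower and 15 (2.19%) at least 2-fold higher, where 4.68% and 3.14% of all probes were. At 6 weeks the counts were 40 (5.77%) and 14 (2.02%) of 693, against 3.64% and 3.25%. At 12 weeks they were 19 (2.75%) and 24 (3.48%) of 690, against 2.16% and 2.72%, with more members higher than lower. At 20 weeks they were 20 (2.8%) and 15 (2.1%) of 715, against 2.13% and 2.06%.

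The change with diet, the mean of 6, 12 and 20 weeks minus chow, was tested with limma across all kept probes, with both genotypes as replicates of a week. Of the members 4 probes rose (0.54%, against 0.772% of all) and 1 fell (0.135%, against 0.393%). These were Cdkn3, Phf11a and both Vwa8 probes, and Ptk2b. Of the 13 steady members 0 passed in limma, the smallest adjusted p being 0.0779 for Cysltr2 with a coefficient of 0.83, so those genes are described by genotype only.

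Ptk2b, a calcium-activated tyrosine kinase of blood and immune cells (65107682 to 65107741), read 1817, 799.5, 639.9 and 752 in wild type and 2332, 787, 647 and 744 in knockout. Both chow arrays were above all 6 high-fat arrays. It fell by 1.61 on the log2 scale (SE 0.15, limma adjusted p = 0.0309). A dimmer Ptk2b probe at 65127949 did not follow it, with a diet coefficient of 0.23 that did not pass. Vwa8, a mitochondrial ATPase with a von Willebrand factor A domain, read 4300.0, 7827, 8979 and 9923 in wild type and 4202, 10032, 9143 and 11563 in knockout at its first probe (77799191 to 77799250). All 6 high-fat arrays were above both chow arrays, and the gene rose by 1.05 (SE 0.12, limma adjusted p = 0.0405). Its second probe (77935476 to 77935535) rose by 0.93 (SE 0.11, limma adjusted p = 0.0438).

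Phf11a, a PHD-finger protein of a family with near-identical copies beside it (58231044 to 58231103), read 139, 249, 382 and 380.0 in wild type and 157, 319, 457 and 395 in knockout. The chow arrays were again the lowest, and it rose by 1.17 (SE 0.11, limma adjusted p = 0.0320). Cdkn3, a phosphatase that acts on cyclin-dependent kinases (45691810 to 45693333, a probe whose coordinates span more than 60 bases), read 18.5, 46.8, 230.0 and 92.0 in wild type and 28.0, 72.2, 383 and 87.6 in knockout. Both 12-week arrays were the highest. Neither chow array was well above background while all 6 high-fat arrays were, so its size is a bound. It was at least 3.72-fold higher on high-fat diet (limma adjusted p = 0.0297 for the measured values). Without the 12-week pair or without the 20-week pair 0 members passed the diet test, and without the 6-week pair 14 did.

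**Figure D5:**
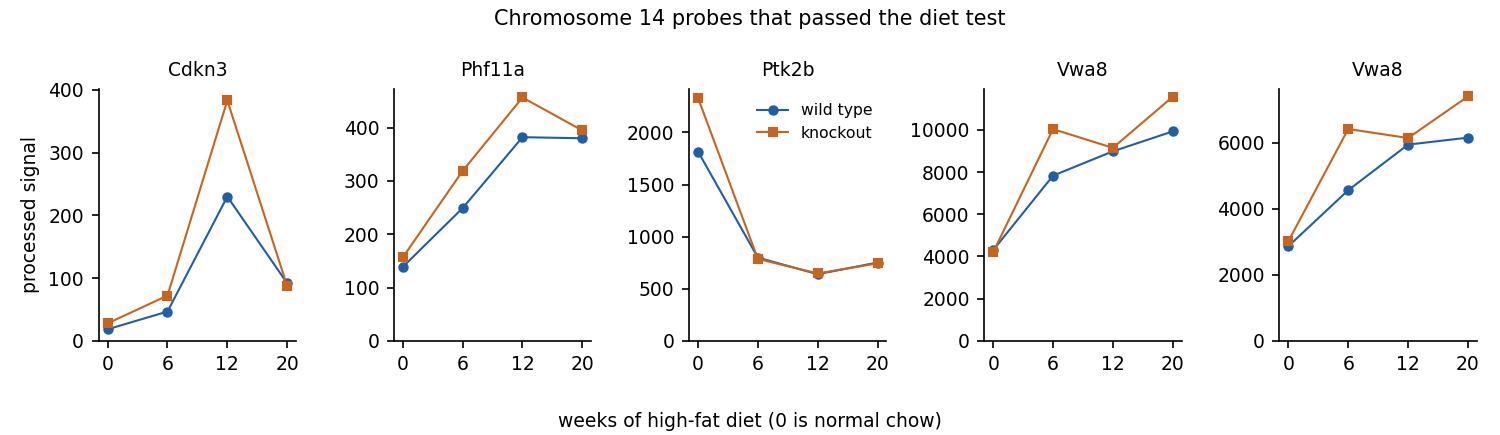
Processed signal (linear axis from 0) of the 5 chromosome 14 probes that passed the diet test, by weeks of high-fat diet, with 1 array per point, blue for wild type and orange for knockout. The chow arrays are the lowest for Cdkn3, Phf11a and both Vwa8 probes and the highest for Ptk2b, in both genotypes.

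Among 26 measured genes of the list of hepatocyte enzymes and transporters, 0 rose or fell in limma, and their median diet coefficient was -0.00 against -0.04 over all probes. Hacl1, which splits 2-hydroxy fatty acids in peroxisomes, had the largest coefficient (-0.85, SE 0.27, limma adjusted p = 0.153). It read 394, 147, 135 and 301 in wild type and 234, 187, 82.5 and 388 in knockout, with the 12-week arrays lowest. After it came Gch1 at -0.56, Slc25a37 at -0.42 and Kcnk5 at -0.42. The list does not hold Pck2, described above. By genotype the listed genes ranged from -0.70 to 0.16 with 0 steady members. Glud1, Mat1a and Ephx2, bright genes of amino acid and epoxide metabolism, had genotype differences of -0.12, 0.03 and -0.07.

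Of 12 measured secreted proteins, 0 passed the diet test in limma. Lgals3, a galectin of macrophages, read 338, 594, 2358 and 1403 in wild type and 481, 987, 3192 and 826 in knockout, with both chow arrays lowest and a coefficient of 1.59 (SE 0.29, limma adjusted p = 0.0669). Loxl2 had 1.33 (SE 0.27, limma adjusted p = 0.0768), and Itih1 -0.64. Sftpd was well above background on 0 chow arrays and 3 high-fat arrays, so no size is given. Of 21 measured immune and blood cell genes 1 fell, Ptk2b, and 20 did not pass. Of the eosinophil ribonucleases, which have near-identical relatives, Ear1 had a coefficient of 1.30 (limma adjusted p = 0.0777). Ear10 had 0 chow arrays and 5 high-fat arrays well above background. With the chow arrays set at the dimmest probe above background, it was 2.01-fold higher on high-fat diet, not a strict bound (limma adjusted p = 0.107). Tcra was well above background on 3 arrays, so no size is given. Of 13 measured transcription factors and receptors 0 passed in limma, with coefficients of 0.62 for Ripk3 and -0.60 for Klf12. Ptger2, with 0 chow arrays and 5 high-fat arrays well above background, was 1.22-fold higher on high-fat diet by the same setting, also not a strict bound. Egr3 was well above background on only 2 arrays, so no size is given.

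Across all members the median diet coefficient was -0.06, against -0.04 for all kept probes. The interaction of genotype with diet was tested in a second limma fit, which takes the single chow array of a genotype to vary as the remaining arrays do. It called 0 of 741 members and 0 of 21382 probes. At an unadjusted p under 0.05 there were 25 members (3.37%), against 4.43% of all probes.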

How the data were processed

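Liver RNA of 8 samples was measured, 1 one-colour array each. Spot intensity was processed by the authors in Agilent Feature Extraction, version 9.5 in the submitters' processing notes and 9.5.3.1 (array design 014868) per the file headers, with background and spatial trend subtracted. The deposited value table holds log2 values and served as an alternative, as did normexp (offset 50) on the deposited raw mean and background intensity. At least 99.7% of its values in each array were within 0.01 of the log2 values computed here.

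After removal of 1639 control spots and of 75 to 130 outlier spots on each array, replicate spots were averaged and log2 values scaled by each array's 75th percentile. Printed signals are before that scaling and differences and folds after it, and "no overlap" refers to scaled values. Coordinates are mm8, from the array files. No mm8 gene annotation was used, so exon, intron and UTR positions are not given. Names came from RefSeq (GRCm38.p6) for 680 members, and 61 kept the name in the file. For 4 members RefSeq places the named gene on another chromosome. One probe position was left out by the rule for the members, and the values of 1 further member are counted but not reported here.

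limma 3.58.1 in R 4.3.3 (with the package data.table, version 1.17.8) fitted week (4 levels) and genotype over all kept probes, with 3 residual degrees of freedom, or 4 for the interaction. Calls used Benjamini-Hochberg adjusted p under 0.05. The 4 weeks serve as a genotype's replicates, so p-values measure only the spread between these 8 arrays. The genotype contrast of the fit and the interval rule were tested on simulated data. The simulation of the fit did not check the diet and interaction contrasts. Where no array of the lower group was well above background, the fold is a bound. That group is then set per array at no less than the lowest signal marked well above background. The bound applies to the processed signals and not to normexp. The other group's mean takes all its arrays, so the bound is not strict where some of those were not well above background. The members and lists were chosen with earlier results of these data known. Named genes were the steady members, those past the genotype or diet test, members of intervals and their neighbours, and in each list up to 4 genes with the largest diet coefficients. Others are illustrations chosen after their values were seen. Alternatives changed the scaling, background correction, values, filter, size, gap, gene minimum, model and the weeks used. The number of arrays limits the precision.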

Additional observations from a re-analysis of the deposited data

Results flagged for a closer look

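Among the 4 weekly genotype differences of Entpd4, the 0-week one stood apart from its nearest neighbour by 0.867 of a range that spans only -0.77 to -0.69. Chance flags about 1 in 20 groups of 4 in this way.

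For 4 genes every high-fat array of wild type lay on one side of the chow array and every one of knockout on the other side. On the log2 scale, the mean of the high-fat arrays minus chow was -0.39 in wild type and 0.30 in knockout for Ldb3, and -0.29 and 0.32 for Ltb4r2. It was -0.46 and 0.49 for Gucy1b2, and -3.93 and 1.52 for Egr3. Many of these arrays were not well above background, so the values are measured readings and not sizes of a change. Of the knockout arrays, 0 were above it for Ldb3 and 1 each for Ltb4r2 and Gucy1b2, and for Egr3 2 of all 8 arrays were. Each rests on 1 chow array per genotype, these differences were not tested singly, and the limma interaction fit called 0 of 741 members. No share of all kept probes with this pattern is given, so nothing is read from the count of 4 genes.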

How the results depend on the processing

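Quantile scaling and the deposited table kept all 13 steady members and 2 genotype calls, with 6 and 5 diet calls. Under normexp the 12 lower members became 4 (Lrmda, Pck2, Entpd4 and BB098755), the higher one 0, genotype calls 1 and diet calls 18. A filter on all 4 arrays of a genotype gave 7 lower, 0 higher and 25 diet calls. No filter gave 16 lower, 2 higher, 1 interval and 0 diet calls, and a filter on all 8 arrays, added after seeing the data, 2 lower and 0 higher. A size of 1 gave 3 lower and 0 higher, and a size of 0.3 gave 21 lower and 1 interval. With 2 genes per interval there were 2, and with a size of 0.3 as well, added after seeing the data, 3. Gaps of 0.5 or 2 Mb gave 0 intervals. Without moderation of the variance 0 genotype calls were made. Diet calls were 0 for 6 weeks alone, 27 for 12 weeks alone and 7 for 20 weeks alone. Leaving out each weekly pair gave 13 to 15 lower members, 2 to 4 higher, 0 to 2 lower intervals, 0 genotype calls and 0 to 14 diet calls. Diet could not be tested without the chow pair. The share of all kept probes that were steady lower also moved with the setting. It was 0.449% in the main setting, 0.0655% under normexp, 0.339% with the filter on all 4 arrays and 0.403% with no filter. It was 0.0421% at a size of 1, 1.08% at 0.3, and 0.673% to 0.921% with a weekly pair left out. No such share is given for diet calls under these alternatives, so nothing is read from those counts. Of 91 alternative values for the steady members, 80 moved by less than their spread, 11 moved further (all under normexp) and 0 reversed. Under normexp the mean differences were -0.56 for Cfap20dc, -0.38 for D830044D21Rik, -0.37 for Ldb3, -0.31 for Ltb4r2, -0.52 for Setdb2, -0.41 for Gucy1b2, -0.58 for Slain1, -0.81 for Pck2 and -0.69 for Entpd4. The 112 for other named genes moved by less than their spread. No paired analysis was possible because the labels number every array 1, beyond the matching of arrays by week that the fit and the weekly differences already hold. Signal near background limits most steady members: 2 of 12 lower ones were above it on all 8 arrays.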
